A study of Mus musculus with 2 samples.

Results

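The 6 genes of the renin-angiotensin system examined here in open chromatin of mouse kidney were Ren1, Agt, Ace, Agtr1a, Agtr1b and Mas1, of the 21938 protein-coding genes of GENCODE M21. They were chosen by name. Each locus was the annotated gene body on mm10 plus 20 kb on each side. The material was kidney tissue of female B6CASTF1/J mice, a first-generation cross of C57BL/6J and CAST/EiJ, taken at 36 days of age. DNase-seq, in which DNase I cuts chromatin that nucleosomes leave exposed, was run on 2 libraries that the labels number as biological replicates of 1 group. The labels list the females under separate numbers but give both the same donor entry. There was no other tissue, treatment or control, so every value below is given for each library and no test between groups exists.

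Renin, an aspartic protease made by juxtaglomerular cells of the afferent arteriole, cuts angiotensinogen to release angiotensin I. Angiotensin-converting enzyme trims that peptide to angiotensin II, which raises blood pressure and sodium retention through the type 1 angiotensin receptors. Angiotensin-(1-7), a further product, acts through the receptor Mas. Rodents carry a pair of type 1 receptor genes, Agtr1a being the main one in the kidney and Agtr1b better known from the adrenal gland.

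The sequences of the accessible sites that the results turn on are given first, from the mm10 reference, 5′ to 3′ on the strand of the gene. Capitals mark bases inside a footprint of both libraries, a footprint being a short stretch that the authors called as protected from DNase I. The pair of Ren1 sites is shown because these were the accessible sites nearest to the renin gene's start, upstream at chr1:133347881-133348100 (plus strand) and in an intron at chr1:133353621-133353794 (plus strand).
Ren1 upstream site: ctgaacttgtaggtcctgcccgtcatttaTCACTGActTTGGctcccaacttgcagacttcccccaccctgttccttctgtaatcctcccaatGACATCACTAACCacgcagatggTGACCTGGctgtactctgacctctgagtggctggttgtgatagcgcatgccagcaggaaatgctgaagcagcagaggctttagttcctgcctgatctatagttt
Ren1 intronic site: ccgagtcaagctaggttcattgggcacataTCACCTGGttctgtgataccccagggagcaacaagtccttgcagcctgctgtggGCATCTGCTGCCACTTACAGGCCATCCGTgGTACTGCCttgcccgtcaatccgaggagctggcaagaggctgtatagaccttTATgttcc

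For Agt the promoter site, chr8:124569761-124569960 (minus strand), and the far upstream site, chr8:124573581-124573720 (minus strand), are shown as the tallest sites of the locus in both libraries.
Agt promoter site: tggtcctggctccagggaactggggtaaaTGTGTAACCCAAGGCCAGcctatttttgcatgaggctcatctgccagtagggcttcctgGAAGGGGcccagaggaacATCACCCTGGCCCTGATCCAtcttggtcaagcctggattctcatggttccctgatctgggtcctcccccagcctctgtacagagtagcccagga
Agt far upstream site: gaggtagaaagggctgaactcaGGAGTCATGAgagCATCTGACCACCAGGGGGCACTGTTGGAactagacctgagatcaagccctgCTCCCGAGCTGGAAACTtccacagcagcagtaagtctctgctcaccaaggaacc

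Ace has 2 sites shown, at its 5′ end, chr11:105967741-105967920 (plus strand), and over exon 12, chr11:105974661-105974860 (plus strand), since these lay within 1 kb of separate start sites of the gene. The exon 12 site ended 348 bp before the internal start and did not cover it. The site at the 5′ end had no footprint in replicate 2 and so carries no capitals.
Ace 5-prime promoter site: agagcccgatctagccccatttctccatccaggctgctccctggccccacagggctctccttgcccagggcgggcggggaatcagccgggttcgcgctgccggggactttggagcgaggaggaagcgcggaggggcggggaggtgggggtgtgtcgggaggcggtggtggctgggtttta
Ace exon 12 site: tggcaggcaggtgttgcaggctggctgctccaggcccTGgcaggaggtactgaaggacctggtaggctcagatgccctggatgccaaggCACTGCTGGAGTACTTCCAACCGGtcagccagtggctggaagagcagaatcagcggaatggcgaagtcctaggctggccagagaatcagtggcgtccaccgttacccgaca

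The receptor sites shown are the part of the Agtr1a promoter peak before the start site, chr13:30336341-30336440 (plus strand), and the tallest site of Mas1, chr17:12880301-12880480 (minus strand).
Agtr1a promoter site: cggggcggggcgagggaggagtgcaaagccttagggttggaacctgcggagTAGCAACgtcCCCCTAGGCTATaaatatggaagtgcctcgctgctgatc
Mas1 upstream site: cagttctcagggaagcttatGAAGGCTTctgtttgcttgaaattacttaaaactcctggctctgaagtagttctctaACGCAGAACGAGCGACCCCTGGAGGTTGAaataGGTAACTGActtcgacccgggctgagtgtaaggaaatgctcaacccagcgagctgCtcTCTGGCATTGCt

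Accessibility at the start sites divided the 6 genes. A promoter peak, meaning an authors' peak within 1 kb of any annotated start site of the gene, was present in both libraries at Agt, Ace and Agtr1a, 3 of the 6 genes, against 60.7% of all protein-coding genes. Mas1 had one in replicate 1 alone, and Ren1 and Agtr1b had none in either library. Replicate 1 thus had 4 of 6 genes, against 66.9% of all protein-coding genes, and replicate 2 had 3 of 6, against 60.9%. Within 2500 bp of a start site, 5 of 6 genes had a peak in both libraries, all but Agtr1b, against 63.7% of all protein-coding genes. Counting the gene's 5′ end alone, Agt and Agtr1a had a peak in both libraries, 2 of 6 genes against 55.9% of all protein-coding genes. In the authors' wider peak set, which holds weaker peaks as well, 4 of 6 genes had a promoter peak in both libraries, Mas1 being the addition, against 64.9% of all protein-coding genes. CpG-poor promoters are less often open in bulk tissue. Ren1, Agt and Mas1 were all in the second decile of all genes by CpG ratio (observed over expected, in 1001 bp around the 5′ end), where 18.8% of genes had a promoter peak in both libraries, and of these Agt had one. Agtr1b was in the fourth decile (42.6%), Agtr1a in the sixth (79.7%) and Ace in the seventh (88.1%). The decile describes the 5′ end, whereas the promoter peak of Ace in both libraries lay at an internal start.

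The 6 loci together held 47 sites in replicate 1, and 21 of them were also called in replicate 2, which had no site of its own. Of the 21 shared sites, 3 were promoter sites, 4 intronic, 5 in the upstream flank and 9 in the downstream flank. The 26 sites of replicate 1 alone had heights of 0.371 to 2.07, and the shared sites had heights of 0.343 to 8.78 in replicate 1, so that the ranges overlapped. Height is the authors' signal value per peak, on a scale that is not stated; the median over all peaks was 1.33 in replicate 1 and 1.46 in replicate 2. At 13 of those 26 sites replicate 2 held an interval at a false discovery rate below 0.05. The share over all sites of replicate 1 alone was not counted. In bulk tissue, a site that is open in few cells and a site that is weakly open in many cells cannot be told apart.

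**Figure D1:**
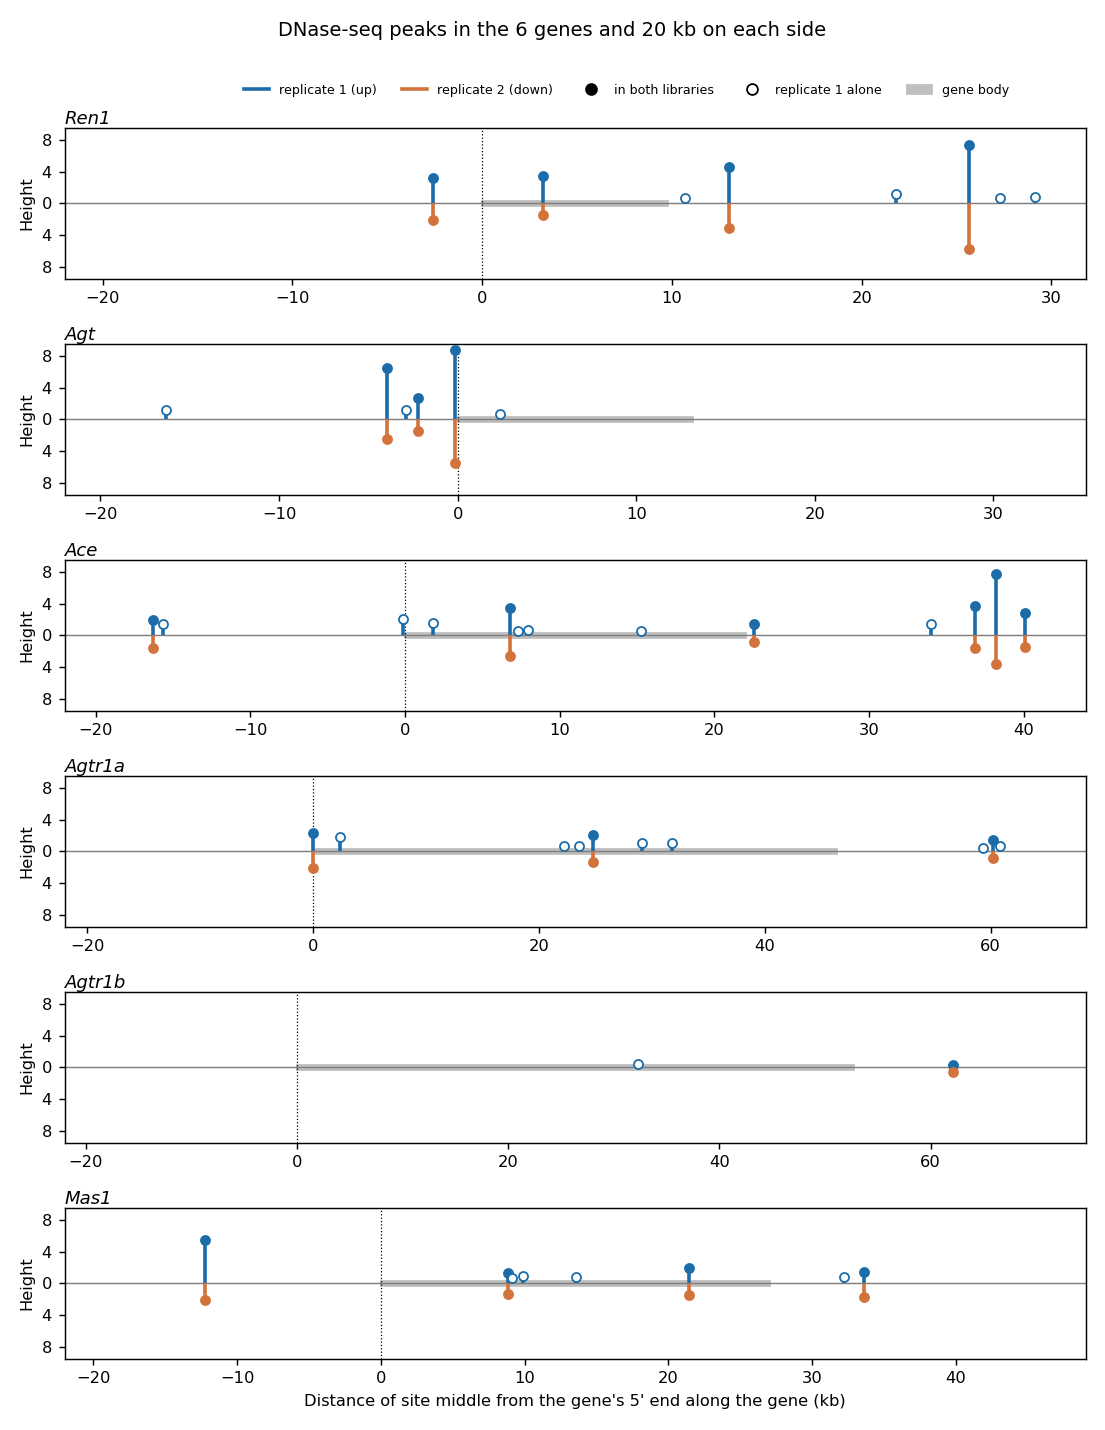
Height of every peak (authors' units) in the 6 loci against the distance of its middle from the gene's 5′ end in kb, drawn up for replicate 1 and down for replicate 2, with filled points for sites in both libraries, open points for sites in replicate 1 alone, and a grey bar for the gene body. Ren1 has no peak at its 5′ end and its nearest one 2590 bp upstream, while the tallest peak of Agt, 8.78 in replicate 1 and 5.55 in replicate 2, lies 155 bp upstream of the 5′ end.

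The renin gene Ren1 (ENSMUSG00000070645.5, chr1:133350510-133360325, plus strand) was accessible on either side of its start and not at it. The locus held 8 sites in replicate 1 and 4 in replicate 2, all 4 of them shared. The nearest lay 2590 bp upstream of the 5′ end, outside the promoter window, and had a height of 3.19 in replicate 1 and 2.16 in replicate 2. That placed it among the top 21.1% of peaks in replicate 1 and the top 34.1% in replicate 2. It held 8 footprints in replicate 1 and 6 in replicate 2, more than any other site shown here. Its peak in replicate 1 was also the widest of the sites shown, at 360 bp against 240 bp or less, and was 220 bp in replicate 2. The lowest false discovery rate within the site, as −log10, was 40.5 in replicate 1 and 19.2 in replicate 2.

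The intronic site of Ren1, 3201 bp downstream of the 5′ end, had a height of 3.41 in replicate 1 and 1.43 in replicate 2. It was thus in the top 19.6% of replicate 1 and near the middle of replicate 2 (top 51.2%). It held 3 footprints in replicate 1 and 4 in replicate 2. The other shared sites were downstream of the gene, at or inside its neighbour Etnk2, an ethanolamine kinase gene. One overlapped the Etnk2 start site, with a height of 4.62 in replicate 1 and 3.11 in replicate 2. The other, inside Etnk2 and 25681 bp from the 5′ end of Ren1, was the tallest of the locus at 7.40 in replicate 1 and 5.76 in replicate 2. A further 4 downstream sites, in replicate 1 alone, had heights of 0.640 to 1.21.

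Around the Ren1 start no signal passed the authors' threshold. No interval at a false discovery rate below 0.05 lay within 1 kb of the Ren1 5′ end in either library, whereas 67.2% of protein-coding genes had one in replicate 1 and 61.2% in replicate 2. Of the 6 genes, Agt, Ace and Agtr1a had one in both libraries, against 60.8% of protein-coding genes. At Ren1 the nearest interval ended 2314 bp upstream in replicate 1 and 2343 bp upstream in replicate 2. On the other side the nearest began 2818 bp downstream in replicate 1 and 2873 bp downstream in replicate 2. That downstream interval led up to the intronic site. At 2990 bp downstream the −log10 of the rate was 6.49 in replicate 1 and 1.49 in replicate 2, and the wider set had a separate peak of replicate 2, with a height of 0.570, 2938 bp downstream. With another annotated start the start region was likewise without an interval. RefSeq places the start 164 bp downstream of the GENCODE 5′ end, and from there the nearest intervals were 2478 bp (replicate 1) and 2507 bp (replicate 2) upstream and 2654 bp and 2709 bp downstream. The last 30 bases before the RefSeq start, chr1:133350644-133350673 (GRCm38.p6, plus strand), are shown because they hold a TATA box letter match, TATAAA in capitals, 29 bp before that start.
Ren1 TATA stretch: gTATAAAagaaggctcagggggtctgggct
Among 32851 RefSeq promoters, 7.59% hold TATAAA on the strand of the gene in the 250 bases before the start.

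A renin enhancer at about this distance upstream of mouse Ren1 is known from transfection work in a mouse renin-expressing tumour line, where a cAMP response element and a direct repeat of TGACCT bound by retinoid receptors carry much of its activity. In the upstream site printed above, counting from 1 at its first base, TGACCT occurred at bases 117 and 133, with 10 bases between the copies. The first copy lay wholly inside a footprint in both libraries, and the second in replicate 2 alone. A pair of TGACCT on 1 strand within 200 bp was found at 873 of the 65122 sites shared by the libraries genome-wide (1.34%). A pair with 10 bases between the copies was found at 7 of them (0.0107%). That spacing was read from the Ren1 site, which is itself among the 7, so this share is no test of the site. TGACATCA, a near match to the palindromic cAMP response element TGACGTCA, began at base 93 and lay wholly inside a footprint of replicate 1. It was present at 1.13% of all shared sites, and of the 21 shared sites of the 6 loci the one at the Etnk2 start held it too. A half-site of the cAMP response element, CGTCA, began at base 21, wholly inside a footprint in replicate 1 and not in replicate 2. The intronic site held CGTCA as well, at base 128, not wholly inside a footprint of either library.

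**Figure D2:**
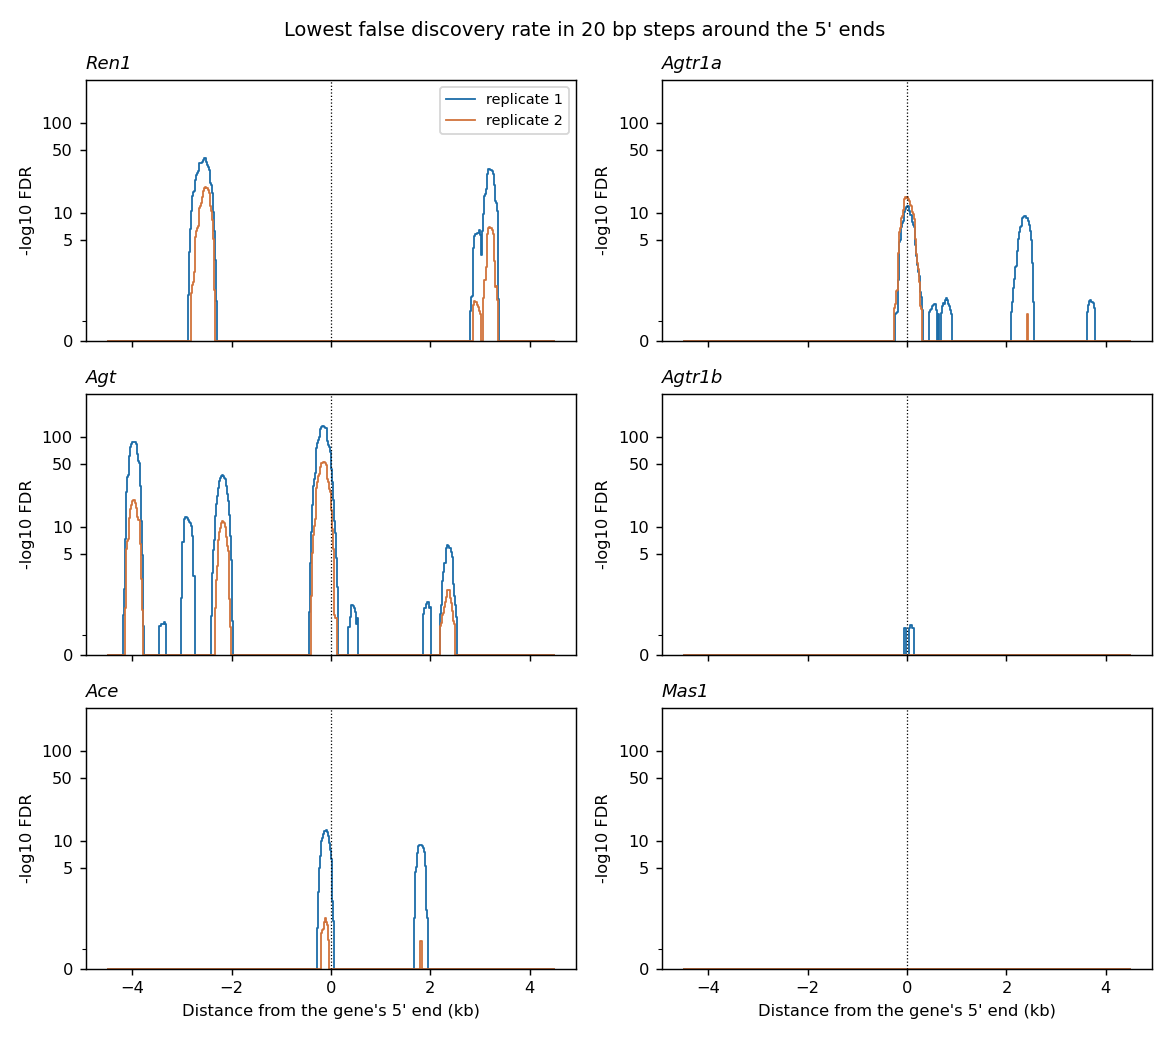
Lowest false discovery rate of the authors' intervals in 20 bp steps, as −log10 (linear up to 5, logarithmic above), against the distance from the 5′ end of each gene in kb, with a blue line for replicate 1 and an orange line for replicate 2. At Ren1 both lines are at 0 over the start and rise on either side of it, at Agt they reach 134 (replicate 1) and 53.2 (replicate 2) just before the start, and at Mas1 they stay at 0 over the range drawn.

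The angiotensinogen gene Agt (ENSMUSG00000031980.9, chr8:124556534-124569706, minus strand) had the tallest promoter of the group. Its promoter site, 155 bp upstream of the 5′ end, had a height of 8.78 in replicate 1 and 5.55 in replicate 2, in the top 5.81% and the top 11.6% of peaks. The lowest false discovery rate within 1 kb of the 5′ end was 2.87e-134 in replicate 1 and 6.37e-54 in replicate 2. Each library had 3 footprints wholly inside its peak, and 45 of the 200 bases printed above were in a footprint of both. The site carried the letters TTCCTGGAA, a match to the STAT motif TTCNNNGAA, from base 83, and these were not wholly inside a footprint in either library. That motif was present at 6.09% of all shared sites.

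Agt was also accessible further upstream. The far upstream site, 3945 bp from the 5′ end, had a height of 6.42 in replicate 1 (top 8.87%) and 2.43 in replicate 2 (top 30.0%). Its rank differed more between the libraries than that of the promoter site. CCACCAGGGGGC, a match to a core of the CTCF motif, began at base 43 of this site and lay wholly inside a footprint in both libraries. CTCF is the zinc finger protein that bounds chromatin loops, and its core letters were present at 8.01% of all shared sites and at 1 of the 21 shared sites of these loci. Another shared site, 2195 bp upstream, had a height of 2.64 in replicate 1 and 1.52 in replicate 2. The remaining 3 sites of the locus, 1 of them intronic, 2364 bp downstream of the 5′ end, were in replicate 1 alone at 0.687 to 1.22. No site within the gene body was shared.

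The gene of angiotensin-converting enzyme, Ace (ENSMUSG00000020681.14, chr11:105967945-105989964, plus strand), had the most sites of the 6, 13 in replicate 1 and 6 in replicate 2. Its promoter peak in both libraries was not at the 5′ end, from which the long somatic form of the enzyme is transcribed, but inside the gene. Ace is known to have an internal promoter that gives the short form made in testis. The peak lay 6816 bp downstream of the 5′ end, touched exon 12 of Ace-201 and ended 348 bp before the start of the internal transcript Ace-202. Its height was 3.51 in replicate 1 and 2.60 in replicate 2 (top 18.9% and top 27.9%), with 4 footprints in replicate 1 and 3 in replicate 2. At the Ace-202 start itself replicate 1 had a low peak (0.566) and replicate 2 had none in the stricter set.

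At the 5′ end of Ace, replicate 1 had a peak 115 bp upstream with a height of 2.07 (top 33.4%). Replicate 2 had one there only in the wider set, with a height of 0.958. The lowest false discovery rate within 1 kb was 6.33e-14 in replicate 1 and 0.00302 in replicate 2, so that both libraries had signal and replicate 2 far less. This site was rich in G and C (69.4%) and held GGGCGG, a match to the SP1 motif, at bases 68, 72 and 133, the first pair overlapping. GGGCGG was present at 23.3% of all shared sites.

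The flanks of Ace carried the other shared sites. The tallest, 38216 bp downstream of the 5′ end and 1864 bp from the start of the potassium channel gene Kcnh6, had a height of 7.71 in replicate 1 and 3.65 in replicate 2. Another lay 44 bp from the Kcnh6 start (2.80 in replicate 1, 1.43 in replicate 2). One was inside the neighbouring gene Ace3 (3.75 in replicate 1, 1.57 in replicate 2) and one inside Cyb561, a cytochrome b561 gene (1.87 and 1.54). The last, just past the 3′ end of Ace, had a height of 1.43 in replicate 1 and 0.846 in replicate 2. Replicate 1 had 7 sites of its own in the locus, with heights of 0.566 to 2.07, 1 of them in exon 3 of Ace-201. Of the 6 shared sites, 3 were inside another gene, the exon 12 site among them because the antisense gene Gm11651 overlaps Ace, and 1 was within 1 kb of the start of another gene. Position alone does not tell which gene a site belongs to.

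Agtr1a (ENSMUSG00000049115.15, chr13:30336441-30382867, plus strand), which encodes the type 1a angiotensin II receptor, had a peak over its 5′ end in both libraries. The peak middle was 10 bp from the 5′ end, and the height was 2.37 in replicate 1 (top 29.2%) and 2.08 in replicate 2 (top 35.5%). Unlike the other promoter sites it had a lower false discovery rate in replicate 2 (7.03e-16) than in replicate 1 (8.03e-13). It held 5 footprints in replicate 1 and 3 in replicate 2. In the 100 bases before the start, TATAAA began at base 71 and lay wholly inside a footprint of replicate 1, while the common part of the footprints covered its first letters. TATAAA was present at 4.77% of all shared sites. GGGCGG occurred at base 3, in a footprint of replicate 1.

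Of the other Agtr1a sites, an intronic one 24769 bp downstream of the 5′ end had a height of 2.05 in replicate 1 and 1.40 in replicate 2. A downstream one, 60180 bp from the 5′ end, had 1.42 in replicate 1 and 0.835 in replicate 2. A further 7 sites, 5 of them intronic, were in replicate 1 alone at 0.464 to 1.76. Agtr1a thus kept 3 of its 10 sites in replicate 2, the promoter among them.

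Agtr1b (ENSMUSG00000054988.9, chr3:20314473-20367177, minus strand), the second type 1 receptor gene, was close to devoid of accessible sites. It had no footprint in replicate 1 and 3 in replicate 2. The only shared site, 62156 bp downstream of the 5′ end, had a height of 0.343 in replicate 1 and 0.581 in replicate 2, so that 97.2% of peaks in replicate 1 and 94.9% in replicate 2 were at least as high. An intronic peak of 0.371 was in replicate 1 alone. At the start site the wider set had a peak of 0.130 in replicate 1, with a lowest false discovery rate of 0.0339, and replicate 2 had no interval within 1 kb. The contrast between the receptor genes is given as the values side by side: 10 sites in replicate 1 and 3 in replicate 2 at Agtr1a, against 2 and 1 at Agtr1b, over loci of 86427 bp and 92705 bp.

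Mas1 (ENSMUSG00000068037.11, chr17:12841079-12868143, minus strand), the gene of the receptor Mas, had no interval below a false discovery rate of 0.05 within 1 kb of its 5′ end in either library. Its tallest site was 12248 bp upstream, with a height of 5.49 in replicate 1 (top 10.9%) and 2.13 in replicate 2 (top 34.7%). It held 5 footprints in replicate 1 and 4 in replicate 2, and 58 of the 180 bases printed above were in a footprint of both libraries. Of the letters searched it carried only a C/EBP match, TTACTTAA at base 43, not wholly inside a footprint of either library. The nearest start of another gene, Mrgprh, a receptor gene of the same family, was 4267 bp away.

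Inside and beyond Mas1 the sites were lower. The intronic ones had a height of 2.00 in replicate 1 and 1.47 in replicate 2 at 21423 bp, and 1.34 and 1.28 at 8823 bp downstream of the 5′ end. The shared downstream site, at 33603 bp, was among the few that were taller in replicate 2, at 1.76, than in replicate 1, at 1.46. The promoter peak of Mas1, 98 bp from the start of an internal Mas1 transcript, had a height of 0.779 in replicate 1 and was in replicate 2 in the wider set alone, at 0.601. Another 3 sites of replicate 1 alone had heights of 0.705 to 0.928. All of these lie within Airn, the imprinted non-coding RNA gene that runs through this region on the other strand.

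**Figure D3:**
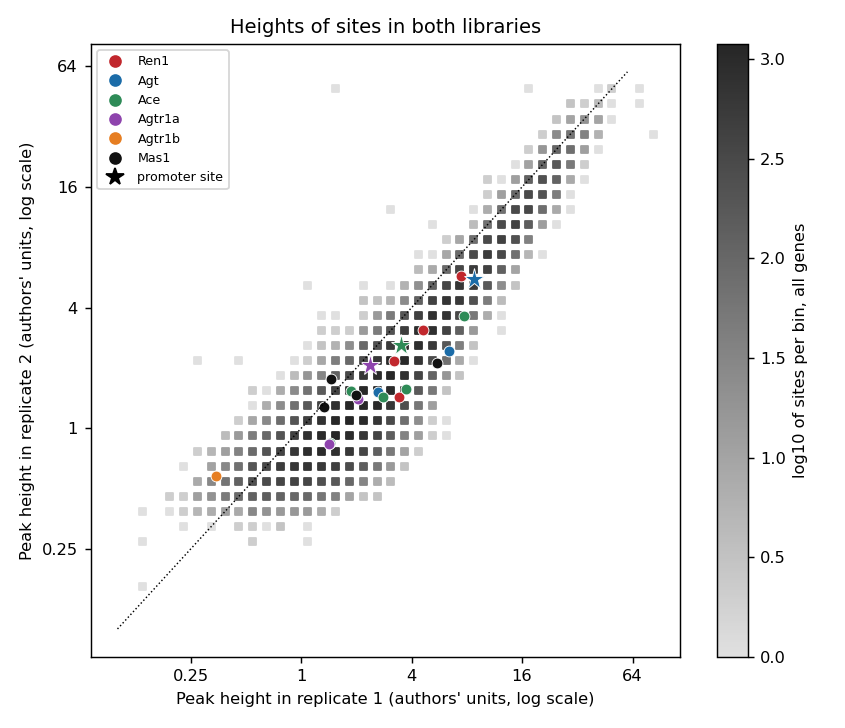
Peak height in replicate 2 against replicate 1 (authors' units, both axes logarithmic) for the 21 shared sites of the 6 loci, coloured by gene with stars for promoter sites, over the number of all shared sites in each bin in grey; the dotted line marks equal heights. All but 2 of the coloured points lie below the line, and the Agt promoter and the site inside Etnk2 are among the highest in both libraries.

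The difference between the libraries in these loci can be read beside that at all sites. Replicate 1 had 124504 peaks and replicate 2 had 68056, and 52.6% of all sites of replicate 1 were also called in replicate 2, against 96.3% of the sites of replicate 2 that were called in replicate 1. At the 21 shared sites of the 6 loci the log2 ratio of replicate 2 over replicate 1 had a median of -0.57 (SD 0.54), and 19 were lower in replicate 2. Over all 65122 shared sites the median was -0.61 (SD 0.45). The lowest ratios were at the far upstream site of Agt (-1.40) and the upstream site of Mas1 (-1.37), and the only positive ones were at the Mas1 downstream site (0.27) and the low Agtr1b site (0.76). Whether a site was shared went with its height. Sites of replicate 1 were divided by height into 5 classes of equal size. All 9 sites of the 6 loci in the top class were called in replicate 2, and so were 7 of 9 in the one below it, 4 of 12 in the middle one, 0 of 12 in the next and 1 of 5 in the lowest. Over all sites of replicate 1 those shares were 98.6%, 83.6%, 50.4%, 23.1% and 7.16%, in the same order.

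Footprints mark stretches that DNase I spared, often where a protein is bound. The 6 loci held 134 footprints in replicate 1 and 77 in replicate 2, and 37 of replicate 1 matched one of replicate 2 over at least 50% of the shorter. Ren1 had 33 in replicate 1 and 23 in replicate 2, more than 71.3% of protein-coding genes in replicate 1 and 73.9% in replicate 2, and 11 of them matched. Part of these lay at the neighbour Etnk2. The shared site at the Etnk2 start held 4 in each library, and the one inside Etnk2 held 4 in replicate 1 and 5 in replicate 2. Ace had 34 (more than 72.8% of genes) and 18 (64.0%) with 10 matched, and Agtr1a 32 (69.9%) and 12 (48.7%) with 4 matched. Agt had 18 (45.6%) and 10 (43.2%) with 5 matched, and Mas1 17 (43.6%) and 11 (46.0%) with 7 matched. Of all these footprints, 93 in replicate 1 and 58 in replicate 2 were wholly inside a peak of the same library. The libraries held 375848 footprints (replicate 1) and 223827 (replicate 2) in all. The shares matched and inside a peak were not counted over these, so the counts do not set the 6 loci apart.

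By the number of shared sites the 6 loci lay within the bulk of all genes. Ace, with 6, had more than 69.5% of protein-coding genes. Ren1 and Mas1, with 4 each, had more than 51.4%, Agt and Agtr1a, with 3 each, more than 40.7%, and Agtr1b, with 1, more than 20.9%. The median was 3.5 for the 6 genes and 3 for all protein-coding genes, of which 79.1% had at least 1 shared site. The length in intervals below a false discovery rate of 0.05 was longest at Ace and shortest at Agtr1b in both libraries. Between Agtr1a and Mas1 the order differed by library, Agtr1a having more in replicate 1 and less in replicate 2. Ace had 5207 bp in replicate 1 and 2260 bp in replicate 2, Agtr1a 4600 bp and 1475 bp, Ren1 3948 bp and 2194 bp, Agt 2938 bp and 1620 bp, Mas1 2649 bp and 1991 bp, and Agtr1b 728 bp and 288 bp. As a share of the locus Ren1 was close to Ace, at 7.93% against 8.40% in replicate 1 and 4.40% against 3.64% in replicate 2.

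**Figure D4:**
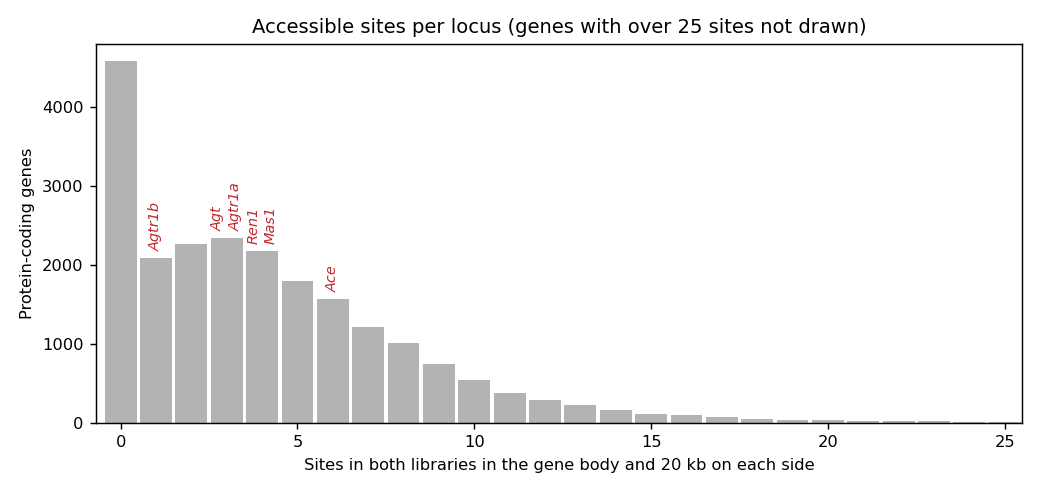
Number of protein-coding genes (vertical axis) by the number of sites in both libraries in the gene body plus 20 kb on each side (horizontal axis), with the 6 genes written above their bars. Agtr1b stands at 1, Agt and Agtr1a at 3, Ren1 and Mas1 at 4 and Ace at 6, within the bulk of all genes.

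Letters of known motifs were searched at the 21 shared sites, in 200 bp around each middle and on both strands, and counted beside all shared sites. CRE half-sites (TGACG) were at 5 sites (23.8%, against 13.7% of all shared sites), nuclear receptor half-sites (AGGTCA) at 4 (19.0% against 18.9%) and C/EBP matches (TTNCNNAA) at 7 (33.3% against 29.0%). NF-1 half-sites (TTGGCA) were at 4 (19.0% against 17.1%) and SP1 matches (GGGCGG) at 3 (14.3% against 23.3%). ETS matches (CCGGAA) were at 2 sites (9.52% against 9.91%), as were STAT matches (TTCNNNGAA, against 6.09%) and TATAAA (against 4.77%). HNF4 matches (CAAAGTCCA) were at 1 site (4.76% against 1.39%), as were AGATAA, read by a family of zinc finger factors (against 5.06%), and steroid half-sites, TGTTCT (against 14.4%). At none of the 21 were the full CRE (TGACGTCA, 1.10% of all shared sites), the E-box (CACGTG, 6.62%), AP-1 (TGANTCA, 7.25%) and HNF1 (0.138%). These are letter matches, not evidence that a factor was bound.

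Among 17 other genes of the pathway, listed by their known roles, 11 had a promoter peak in both libraries, against 60.7% of all protein-coding genes. At the gene's 5′ end alone 9 of the 17 had one, against 55.9%. The 3 tallest belonged to peptidase genes. Thop1, whose enzyme can form angiotensin-(1-7), had a height of 20.7 in replicate 1 and 14.5 in replicate 2. Ctsa, encoding cathepsin A, had 12.1 in replicate 1 and 8.35 in replicate 2. Lnpep, whose product is also known as the angiotensin IV receptor, had 11.4 and 8.60, and Atp6ap2, encoding the prorenin receptor, 8.70 and 8.05. All 4 exceeded the Agt promoter in replicate 2, and all but Atp6ap2 did in replicate 1. The type 2 receptor gene Agtr2, the Mas-related receptor gene Mrgprd and the mast cell and neutrophil proteases Cma1, Cpa3 and Ctsg had none in either library.

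**Figure D5:**
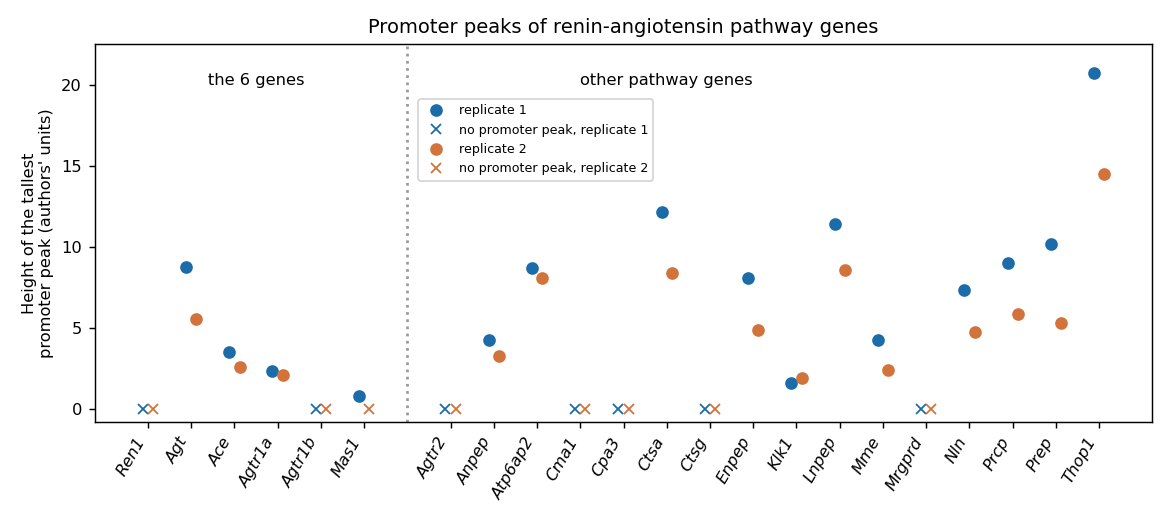
Height of the tallest promoter peak (authors' units) of the 6 genes, left, and of 16 other pathway genes, right, with blue points for replicate 1 and orange points for replicate 2; a cross at 0 marks a library with no promoter peak. Agt is the highest of the 6 at 8.78 in replicate 1 and 5.55 in replicate 2, below Thop1 at 20.7 and 14.5.

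Of 20 genes known to regulate renin 15 had a promoter peak in both libraries, against 60.7% of all protein-coding genes. Counting the gene's 5′ end alone, 11 of the 20 had one, against 55.9% of all protein-coding genes. Among the tallest was Rbpj, the transcription factor gene of Notch signalling, with a height of 23.3 in replicate 1 and 21.4 in replicate 2. At its 5′ end Rbpj had no peak in both libraries. Nr1h2, encoding the liver X receptor beta, had 15.8 in replicate 1 and 10.8 in replicate 2, and Creb1, encoding the factor that binds the cAMP response element, had 12.5 and 9.03. In the stricter peak set the adenosine receptor gene Adora1, the phosphodiesterase gene Pde3b and the cyclooxygenase gene Ptgs2 had a peak in replicate 1 alone. The calcium-sensing receptor gene Casr and the prostaglandin receptor gene Ptger2 had none in either library in that set. In the wider set 19 of the 20 genes, all but Ptger2, had one in both libraries, against 64.9% of all protein-coding genes.

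Of 5 genes of the aldosterone response, which lies downstream of angiotensin II, 4 had a promoter peak in both libraries, against the same 60.7% of all protein-coding genes. At the gene's 5′ end alone 3 of the 5 had one, against 55.9%, Sgk1 not being among them. Nr3c2, the mineralocorticoid receptor gene, had a height of 23.6 in replicate 1 and 19.7 in replicate 2, and the kinase gene Sgk1 had 16.0 and 10.2. Scnn1a, encoding a subunit of the epithelial sodium channel, had 3.82 and 4.95, and Hsd11b2, whose enzyme shields the receptor from glucocorticoids, 2.09 and 1.11. Cyp11b2, encoding the aldosterone synthase of the adrenal gland, had none.

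By the presence or absence of promoter, gene body and flanking peaks in each of the 2 libraries, 6 entries in all, Agtr1a was identical to 4 of the 17 other pathway genes, the first 3 in list order being Anpep, Prcp and Prep. Their common pattern was a peak of every class in both libraries. The kidney genes Lrp2, Slc34a1, Slc12a1, Slc12a3, Pax2 and Pax8 had it too, as did several of the renin regulators, Rbpj among them. Its share over all genes was not counted. None of the 17 matched any of the other 5 genes.

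Markers of cell types were read in the same way. Of 10 kidney epithelial and kidney lineage genes 8 had a promoter peak in both libraries, against 60.7% of all protein-coding genes, and 7 had one at the 5′ end, against 55.9%. Of 10 markers of juxtaglomerular and mural cells, all 10 had one in replicate 1, against 66.9% of all protein-coding genes, and 6 in both libraries, near the share of 60.7%. One of those 6 was Akr1b7, a marker of renin cells in mice, at 0.575 in replicate 1 (top 84.4%) and 0.693 in replicate 2 (top 88.5%). This was a low peak in both libraries. In the stricter peak set Acta2, Notch3, Foxd1 and Tbx18 had a promoter peak in replicate 1 alone. In the wider set 9 of these 10 markers, all but Acta2, had one in both libraries, against 64.9% of all protein-coding genes. Of 6 hepatocyte markers only Fga, and of 5 adrenal cortex markers only Star, had one in both libraries, again beside 60.7% of all protein-coding genes. The wider set had one in both libraries for 9 of the 10 kidney genes, 1 of the 6 hepatocyte markers and 2 of the 5 adrenal cortex markers. The part of these cell types in the sites described above was not tested.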

How the data were processed

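DNase-seq of kidney gave 2 libraries of 1 group. Each library's files were made on their own by the authors, from filtered mm10 alignments, per the deposited notes. The aligner, the peak caller and sequencing depth were not stated in these sources. Reads of both parental alleles were thus placed on the C57BL/6J-based reference, and alleles were not separated here. The deposited peaks come with the authors' signal value, called height here; within each library it is a whole multiple (within 0.02) of 1 step, 0.00928 in replicate 1 and 0.0102 in replicate 2, which would put replicate 2 at 0.911 of the depth of replicate 1 were each step 1 DNase I cut. The deposited false discovery rate files hold a p-value-like rate per interval, all below 0.05, and the deposited footprint files the value 0.01 in every row. The stricter of the 2 deposited peak sets was used, and the wider one as an alternative.

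Peaks of the libraries overlapping by at least 1 base formed 1 site, which took the class promoter (within 1 kb of an annotated start of the gene), then exon, intron or flank by its middle. Sites were ranked within a library by height. All 6 genes were named, and of their sites all promoter sites, the highest ranked shared body and flank sites and the site nearest the start; of the lists up to 4 genes with the highest ranked promoter peak and those without one where they were 5 or fewer. Further sites, the genes with a peak in replicate 1 alone and single markers were chosen after their values or letters were seen. So were the motif TGACATCA, the CTCF core and the spacing of the TGACCT pair. The members and lists were chosen with earlier results of these data known. CpG deciles came from 1001 bp around the 5′ end. Sequences were read from GRCm38.p6, whose chromosomes are those of mm10, and the RefSeq promoter table. Python 3.11.15, pandas 2.3.3, numpy 2.4.6, pysam 0.24.0 and matplotlib 3.10.9 were used, and the site steps were tested on simulated data. The alternatives were the wider peak set, the stronger 50% of peaks, each replicate left out, other windows, flanks, overlap rules and rate limits. Some listed genes enter the counts and are not reported here by name.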

Additional observations from a re-analysis of the deposited data

How the results depend on the processing

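The count of 21 shared sites over the 6 loci was 33 in the wider peak set, 39 with flanks of 50 kb and 6 in the gene bodies alone; leaving out 1 replicate gave 21 to 47. The median share of protein-coding genes with fewer shared sites, 46.1%, became 60.8% with the stronger 50% of peaks, 34.5% in gene bodies alone and 59.8% without peaks near another gene's start, and 44.9% to 59.4% with 1 replicate left out. The 3 genes with a promoter peak became 5 with a window of 2500 bp, Ren1 and Mas1 being added, against 63.7% of all protein-coding genes. Ren1 was added through its upstream site, 2410 bp from the 5′ end, and its intronic site, 1712 bp from the start of the transcript Ren1-202. The 37 matched footprints became 24 within the stronger 50% of peaks, 23 with flanks of 10 kb, 89 with flanks of 50 kb and 8 in gene bodies alone; single replicates held 77 to 134. The length in intervals below the rate limit over the 6 loci, a mean of 14949 bp per library, was 9208 bp at a limit of 0.001, and 9828 to 20070 bp with 1 replicate left out, the lowest without replicate 1. The other alternatives moved the summary values by 1.5 times at most, and the count of 11 other pathway genes stayed at 11 to 12. Of 54 alternative counts for single genes, 33 were within 1.5 times. No paired analysis was possible because there was 1 group and no comparison between groups. With 2 libraries, an unstated height scale and unknown read totals, an absent peak means only that no peak was called at this depth, and replicate 2 called fewer. The causes of these changes were not tested beyond what the alternatives themselves add or remove.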
